A study of Mus musculus with 6 samples.

Results

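Semaphorins are secreted or membrane-bound guidance cues, plexins are their principal receptors, and neuropilins are co-receptors that present secreted class 3 semaphorins to plexins of the A type and bind members of the VEGF family. The genes described here are the protein-coding mouse genes whose symbol is Sema followed by a digit, Plxn followed by a letter from a to d, or Nrp1 or Nrp2 in GENCODE M21. They numbered 31 of the 49315 genes counted: 20 semaphorins, 9 plexins and 2 neuropilins. Gene-level read counts came from immortalized mouse skin keratinocytes. The 3A group was the line MK-546-ha3A (MK-/-:ha3), cells without endogenous α3 integrin to which human α3 had been restored. Control libraries came from MK-546 (MK-/-) cells, which lack α3 integrin. Each group had 3 libraries of untreated cells on collagen-coated dishes, kept at 33 °C and 8% CO2 in low-calcium medium. No keratinocytes with their own mouse α3 are part of the design, and the promoter that drives human α3 is not given in the sources used here. Each group is a single line, so α3 expression and line descent cannot be told apart.

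When a plexin binds its semaphorin, the GTPase-activating domain in its cytoplasmic tail acts on small GTPases of the Ras and Rap type, which loosens integrin-based adhesion and reshapes the actin cytoskeleton. Semaphorins of classes 4 to 6 cross the membrane, and semaphorin 7A is held by a lipid anchor. In mouse epidermis, plexin B2 on keratinocytes is known as the receptor of semaphorin 4D carried by intraepithelial T cells during wound repair. Semaphorin 3E is known for signalling through plexin D1 without a neuropilin, and semaphorin 7A for acting on plexin C1 and on integrins that contain the β1 chain, the partner of α3.

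Total counts per library ran from 34177002 to 36245240 in 3A and from 25634204 to 30919348 in Control. Keratinocyte identity was checked with 10 markers, all of which passed the low-count filter, 0 higher and 3 lower in 3A (Trp63, Cdh3 and Perp), and their summed level was 7111 to 9190 CPM (counts scaled to library size) in 3A and 10013 to 11739 CPM in Control. Summed markers of fibroblasts stayed between 2.05 and 3.40 CPM in 3A and between 2.34 and 3.36 CPM in Control, and those of endothelium between 0.418 and 0.946 CPM in 3A and between 0.412 and 0.467 CPM in Control. Neuron markers summed to 7.10 to 10.7 CPM in 3A and 8.27 to 13.3 CPM in Control, nearly all of it Tubb3, and immune markers to 11.2 to 14.6 CPM in 3A and 14.0 to 23.0 CPM in Control, mostly Cd68. Schwann cell and melanocyte markers summed to 0.774 to 1.63 CPM in 3A and 1.87 to 3.21 CPM in Control, with Pmel lower in 3A (log2 fold change -1.05, adjusted p = 0.0436 by edgeR), and Sox10, Dct, Tyr, Ptprc and Adgre1 were at or near 0. Itga3, the gene altered in these lines, had 57.5 to 80.4 CPM in 3A and 31.9, 41.7 and 45.1 CPM in Control 1, 2 and 3. Control cells carry no human α3, so their 1007, 1220 and 1062 counts are Itga3 reads in cells labelled as lacking α3. Counts of a whole gene do not show which exons the reads cover, and the sources used here do not give the deleted part of the gene. The loss of α3 therefore rests on the labels. In 3A, reads of the human gene may add to the count. Mitochondrial mRNA took 1.23% to 1.58% of counts in 3A and 1.16%, 4.16% and 4.69% in Control 1, 2 and 3. Control 1 correlated with 3A 1, 2 and 3 at r = 0.965, 0.974 and 0.971, and with Control 2 and 3 at r = 0.964 and 0.958 (Pearson, log2(CPM + 1) across genes, which are not replicates). It was thus nearer to each 3A library than to either other Control library. The part of these markers, of the mitochondrial share and of Control 1 in the results below was not tested, except where values without Control 1 are given. Nothing in the labels says that replicates were separate cultures, so the p-values rest on a spread among samples that may be technical only.

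Of the 31 genes, 21 passed the low-count filter. In the quasi-likelihood test of edgeR, with p-values adjusted over all 13704 tested genes by the Benjamini-Hochberg method, 3 of them were higher in 3A (Sema3e, Sema7a and Sema4f) and 4 were lower (Plxnd1, Sema5a, Sema6a and Sema6c) at an adjusted p under 0.05. Among all tested genes 14.9% were called, 7.52% higher and 7.39% lower. Sema5a and Sema6a passed the filter only through the Control libraries, so a difference was built into their being tested. The median log2 fold change of the 21 was 0.05, against -0.02 over all tested genes. The 3 libraries of 3A all lay above those of Control for 4 members and all below for 6, against 18.6% and 17.6% of all tested genes. The 14 members not called included Sema4d, Sema4b and Nrp1, whose groups did not overlap. The counts depended on single libraries. Without 3A 2 or without 3A 3, 1 member was higher and 1 lower, without 3A 1 it was 3 and 1, without Control 2 it was 2 and 1, and without Control 3 it was 3 and 2, while 4.72% to 9.18% of all tested genes were called. Without Control 1, 4 were higher and 5 lower, while 52% of all tested genes were called.

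**Figure D1:**
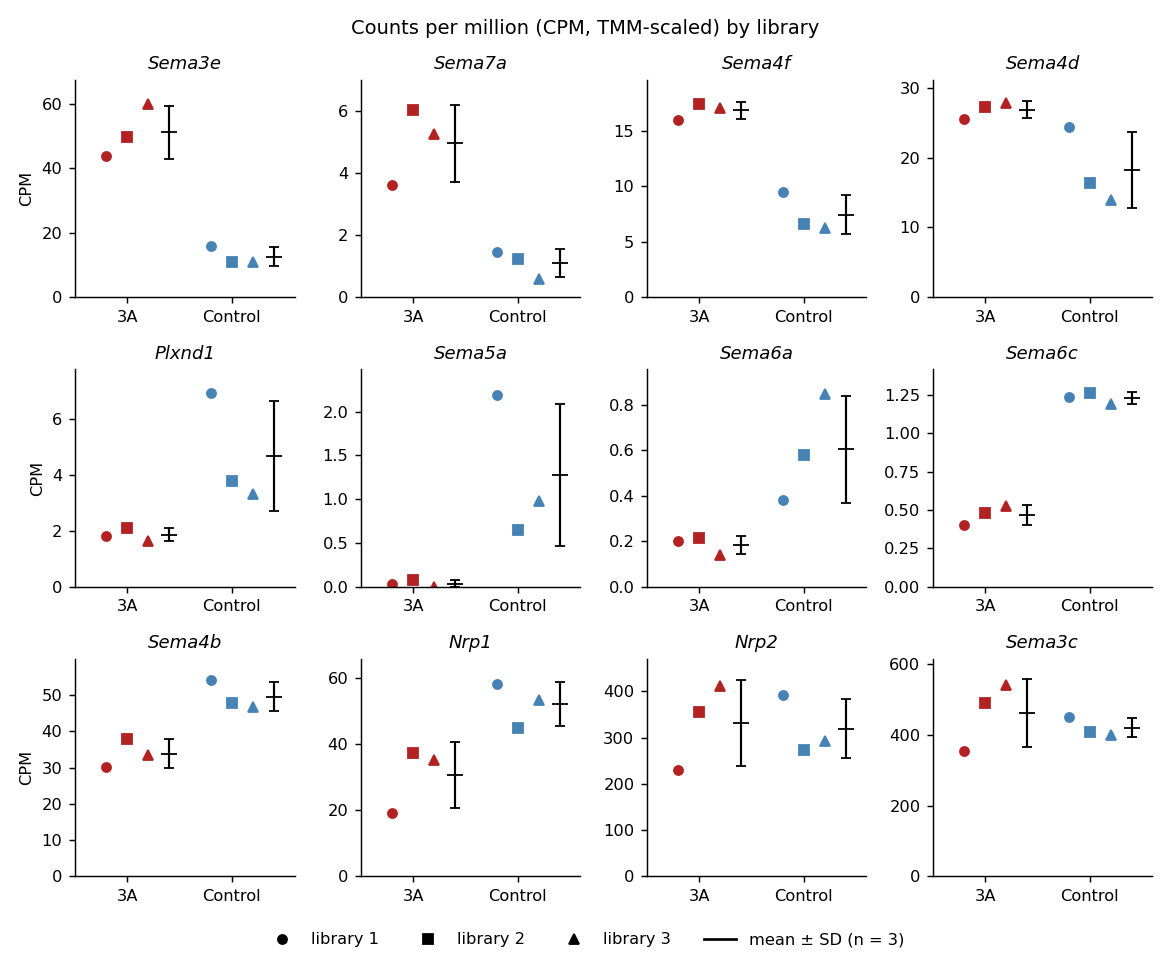
Level of 12 members in each library, in CPM scaled by TMM (linear axes from 0), with 3A left of Control, a symbol for each library number, and bars for the mean ± SD of 3 libraries. Sema3e, Sema7a and Sema4f lie higher in every 3A library than in any Control library, Plxnd1, Sema5a, Sema6a and Sema6c lie lower, and Nrp2 and Sema3c overlap.

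The promoter sequences below belong to the 4 called members whose mean exceeded 1 CPM in both groups, and are shown because Sema3e and Plxnd1, a ligand and its receptor, moved in opposite directions. They are the 250 bases before the RefSeq start site (GRCm38.p6), on the gene's own strand, and none of these genes shares exons with another annotated gene. Capitals mark matches, on either strand, to the Sp1 letters GGGCGG or the TEAD letters GGAATG.
Sema3e, chr5:14025026-14025275, plus strand: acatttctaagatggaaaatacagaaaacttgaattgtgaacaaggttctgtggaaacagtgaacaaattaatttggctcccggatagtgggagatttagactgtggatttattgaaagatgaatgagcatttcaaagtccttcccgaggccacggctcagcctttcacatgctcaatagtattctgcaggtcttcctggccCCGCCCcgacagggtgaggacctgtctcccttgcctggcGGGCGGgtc
Plxnd1, chr6:115995006-115995255, minus strand: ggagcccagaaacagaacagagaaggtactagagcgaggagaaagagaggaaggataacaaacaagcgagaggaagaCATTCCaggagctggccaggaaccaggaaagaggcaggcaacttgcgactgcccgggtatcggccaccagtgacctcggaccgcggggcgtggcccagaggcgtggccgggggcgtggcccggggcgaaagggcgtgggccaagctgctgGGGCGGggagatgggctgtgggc
Sema7a, chr9:57939862-57940111, plus strand: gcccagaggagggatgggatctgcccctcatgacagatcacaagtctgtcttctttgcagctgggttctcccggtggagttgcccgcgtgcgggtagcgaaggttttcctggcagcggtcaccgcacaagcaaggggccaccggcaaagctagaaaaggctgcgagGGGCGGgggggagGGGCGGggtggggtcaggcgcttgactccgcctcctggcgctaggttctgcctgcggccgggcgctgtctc
Sema4f, chr6:82939770-82940019, minus strand: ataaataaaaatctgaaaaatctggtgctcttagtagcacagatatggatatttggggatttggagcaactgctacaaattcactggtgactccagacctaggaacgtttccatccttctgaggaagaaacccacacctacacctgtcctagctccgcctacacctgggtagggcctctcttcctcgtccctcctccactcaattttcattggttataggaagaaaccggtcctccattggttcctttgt

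Of 6 motifs searched on both strands, Sp1 had 2 matches in Sema3e, 2 in Sema7a and 1 in Plxnd1, and TEAD had 1 in Plxnd1. Sema4f held no match. The other motifs were AP-1 (TGANTCA), the TATA box (TATAAA), the E-box (CACGTG) and the cAMP response element (TGACGTCA), with no match in these 4 sequences. Of 32851 RefSeq promoters of this length, 32.7% held an Sp1 match, 12.6% a TEAD match, 6.75% AP-1, 12.4% TATA, 6.02% the E-box and 1.55% the cAMP response element. GC content was 48.0% in Sema3e and 46.0% in Sema4f, against 66.4% in Sema7a and 64.8% in Plxnd1 and a median of 52.4% over all promoters. The sequences thus do not share 1 base composition, and the matches are descriptions of letters, not of bound factors.

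Among the secreted class 3 semaphorins, Sema3e rose and the abundant Sema3c and Sema3f were not called. Sema3e (GRCm38 chromosome 5, 14025276 to 14256689, plus strand) had 1527, 1868 and 2152 counts in 3A 1, 2 and 3, against 504, 319 and 255 in Control 1, 2 and 3. Its level was 43.8, 49.8 and 59.9 CPM in the 3A libraries and 16.0, 10.9 and 10.8 CPM in the Control libraries, with every 3A library above every Control library. The mean was 51.2 ± 8.17 CPM in 3A and 12.6 ± 2.95 CPM in Control (SD, n = 3 each), a log2 fold change of 2.02 (SE 0.22, adjusted p = 0.00186 by edgeR). Leaving out any single library kept the rise, with log2 fold changes from 1.90 to 2.25 and edgeR adjusted p from 0.000161 to 0.0142. In bulk RNA of this kind, more expressing cells and more RNA per cell cannot be told apart.

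Sema3c, a ligand of complexes that contain either neuropilin, was the most abundant member in both groups. It had 354, 490 and 541 CPM in 3A 1, 2 and 3 and 450, 408 and 400 CPM in Control 1, 2 and 3, and the groups overlapped. Its log2 fold change was 0.14 (95% confidence interval -0.31 to 0.59, adjusted p = 0.624 by edgeR). Sema3f, the ligand of neuropilin 2, had 39.0, 49.2 and 40.8 CPM in the 3A libraries and 54.2, 37.7 and 32.5 CPM in the Control libraries, where Control 1 was the highest of all. Its log2 fold change was 0.05 (95% confidence interval -0.47 to 0.57). Sema3a, Sema3b, Sema3d and Sema3g, the other class 3 genes, were below the filter.

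Sema3e lies in a group of class 3 genes on the plus strand of chromosome 5 that spans 5.35 Mb in the order Sema3d, Sema3a, Sema3e, Sema3c. Within it, Sema3d had 1 count in 3A and 1 in Control over 3 libraries each, and Sema3a had 3 and 3, beside the levels of Sema3e and Sema3c given above. On chromosome 9, Sema3b and Sema3f lie 72.3 kb apart on the minus strand, with 23 and 26 counts of Sema3b over the libraries of 3A and Control. Class 3 genes on the same chromosome thus ranged from the most abundant member to single counts. The most abundant, Sema3c, is separated from Sema3e by 3318 kb.

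Among the class 4 semaphorins, transmembrane ligands of plexins of the B type and of plexin D1, Sema4f rose, and Sema4d and Sema4b lay apart in opposite directions without being called. Sema4f had 16.0, 17.4 and 17.1 CPM in 3A 1, 2 and 3, against 9.45, 6.60 and 6.24 CPM in Control 1, 2 and 3. The means were 16.8 ± 0.727 CPM in 3A and 7.43 ± 1.76 CPM in Control (SD, n = 3 each), a log2 fold change of 1.18 (SE 0.20, adjusted p = 0.0107 by edgeR). No libraries of the groups overlapped. The edgeR adjusted p was 0.0615 without 3A 2, 0.0583 without 3A 3 and 0.0568 without Control 2, with log2 fold changes of 1.16, 1.18 and 1.09.

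Sema4d, the plexin B1 and B2 ligand that proteases shed from the cell surface, had 25.5, 27.2 and 27.9 CPM in the 3A libraries and 24.4, 16.4 and 13.9 CPM in the Control libraries. Control 1 lay just under the lowest 3A library. Its log2 fold change was 0.56 (SE 0.22, adjusted p = 0.128 by edgeR), and 0.84 (adjusted p = 0.00310 by edgeR) without Control 1. Sema4b had 30.2, 38.0 and 33.5 CPM in the 3A libraries and 54.3, 47.8 and 46.7 CPM in the Control libraries. All 3A libraries were lower, and the log2 fold change of -0.55 (SE 0.15, adjusted p = 0.0547 by edgeR) fell just short of the threshold. It passed without Control 1 (-0.47, adjusted p = 0.0271 by edgeR) and by DESeq2 (-0.55, adjusted p = 0.00617). Of all tested genes, 52% were called without Control 1 and 26% by DESeq2, against 14.9% in the main test.

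Sema4a, a ligand of plexins of the B type and plexin D1, averaged 7.69 ± 1.30 CPM in 3A and 11.1 ± 2.91 CPM in Control (SD, n = 3 each; log2 fold change -0.53, adjusted p = 0.163 by edgeR). Sema4c, a plexin B2 ligand, averaged 7.91 ± 2.46 CPM in 3A and 6.81 ± 2.72 CPM in Control (log2 fold change 0.21, adjusted p = 0.691 by edgeR). The groups overlapped for both genes. Sema4c shares 7.27% of its exon bases with an antisense transcript gene, and without a stated strand setting reads of the 2 cannot be separated. Sema4g was below the filter.

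Sema7a, which encodes the lipid-anchored semaphorin, rose, at a low level in both groups. It had 126, 227 and 189 counts in 3A 1, 2 and 3, against 46, 36 and 14 in Control 1, 2 and 3. The level was 3.61, 6.05 and 5.26 CPM in the 3A libraries and 1.46, 1.23 and 0.594 CPM in the Control libraries, with no overlap. Its means of 4.97 ± 1.24 CPM in 3A and 1.09 ± 0.448 CPM in Control (SD, n = 3 each) gave a log2 fold change of 2.17 (SE 0.38, adjusted p = 0.0114 by edgeR). The edgeR adjusted p was 0.0611 without 3A 2 and 0.0605 without 3A 3, at log2 fold changes of 2.01 and 2.14. Of its known receptors, Plxnc1 had 3 counts in 3A and 1 in Control over 3 libraries each, so a difference in Plxnc1 was not detectable at this depth. Itgb1, the β1 integrin chain, averaged 665 ± 131 CPM in 3A and 500 ± 77.2 CPM in Control and was not called (log2 fold change 0.41, adjusted p = 0.196 by edgeR). It passed without Control 1 (0.56, adjusted p = 0.0323 by edgeR), where 52% of all tested genes were called.

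The called class 5 and class 6 genes, all transmembrane semaphorins with means under 2 CPM in both groups, fell. Sema5a, whose extracellular part carries thrombospondin repeats, had 1, 3 and 0 counts in 3A 1, 2 and 3, against 69, 19 and 23 in Control 1, 2 and 3. Summed over libraries, 4 counts in 3A against 111 in Control gave a ratio of 0.0281 (95% exact binomial counting interval 0.00751 to 0.0739, which covers counting error only). The edgeR log2 fold change was -4.98 (SE 0.83, adjusted p = 0.00933), and its size depends on the prior count. Control 1 stood above the other Control libraries, at 2.19 CPM against 0.649 and 0.977 CPM. The log2 fold change was -4.30 without Control 1 and -6.13 without 3A 2, and the edgeR adjusted p stayed between 0.00250 and 0.0482 with any 1 library left out. These p-values are for a gene that was tested only through the Control libraries.

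Sema6c had 14, 18 and 19 counts in 3A 1, 2 and 3, against 39, 37 and 28 in Control 1, 2 and 3. Its level was 0.401, 0.480 and 0.529 CPM in 3A and 1.24, 1.26 and 1.19 CPM in Control, without overlap, and the log2 fold change was -1.38 (SE 0.28, adjusted p = 0.0198 by edgeR). Leaving out 3A 1, 3A 2, 3A 3, Control 2 or Control 3 gave edgeR adjusted p of 0.0694, 0.124, 0.0891, 0.0764 and 0.0644. Sema6a, a ligand of plexins A2 and A4, had 7, 8 and 5 counts in 3A and 12, 17 and 20 in Control 1, 2 and 3 (log2 fold change -1.67, SE 0.44, adjusted p = 0.0447 by edgeR). The call was lost without 3A 1, 3A 2, 3A 3, Control 2 or Control 3 (edgeR adjusted p of 0.101, 0.160, 0.185, 0.131 and 0.146). Sema6b, which averaged 0.432 ± 0.0642 CPM in 3A and 0.401 ± 0.0986 CPM in Control, overlapped between groups (log2 fold change 0.12). Sema5b and Sema6d were below the filter.

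**Figure D2:**
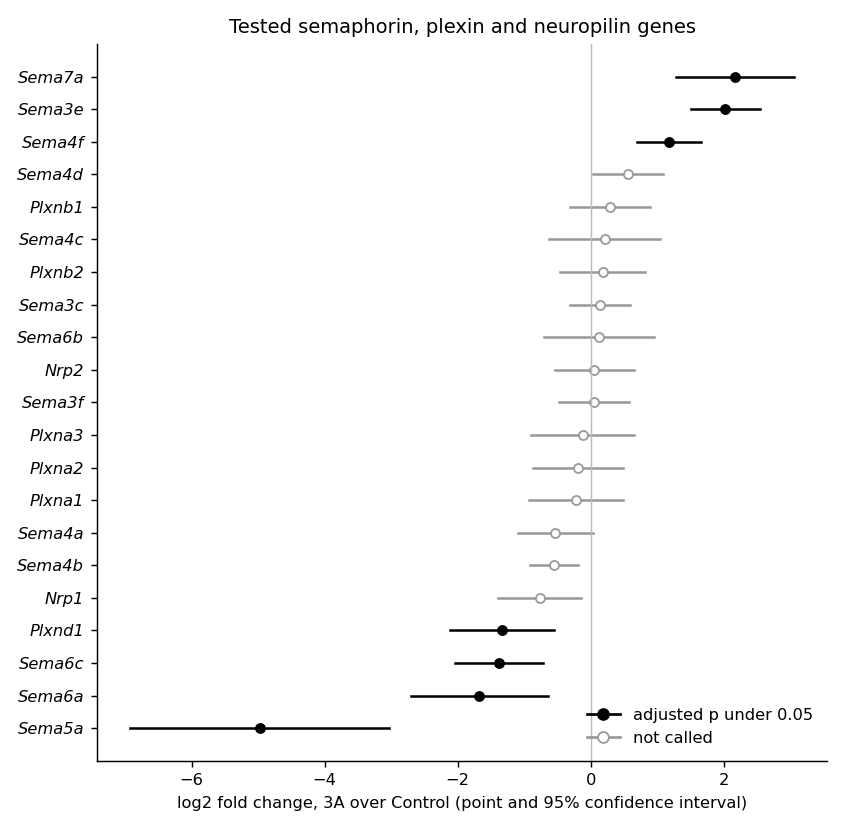
Log2 fold change of 3A over Control for the 21 members that were tested, with 95% confidence intervals from edgeR's quasi-likelihood fit, with filled black points for an adjusted p under 0.05 and open grey ones otherwise. Sema7a (2.17) and Sema3e (2.02) stand at the top and Sema5a (-4.98) at the bottom, while the intervals of most plexins include 0.

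Among the plexin receptors, Plxnd1 fell and the other tested plexins were not called. Plxnd1 (chromosome 6, 115954811 to 115995005, minus strand), the semaphorin 3E receptor, had 64, 79 and 59 counts in 3A 1, 2 and 3, against 219, 111 and 78 in Control 1, 2 and 3. Its level was 1.83, 2.11 and 1.64 CPM in the 3A libraries and 6.94, 3.79 and 3.31 CPM in the Control libraries, with all 3A libraries below and Control 1 the highest. The log2 fold change was -1.33 (SE 0.33, adjusted p = 0.0388 by edgeR). It was -0.92 (adjusted p = 0.0154 by edgeR) without Control 1. The call was lost without 3A 1, 3A 2, 3A 3 or Control 2 (edgeR adjusted p of 0.0973, 0.132, 0.163 and 0.0729) and with scaling by library size alone (0.0640).

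Plxnb2 was the most abundant plexin, at 166, 253 and 253 CPM in 3A 1, 2 and 3 and 270, 166 and 158 CPM in Control 1, 2 and 3. 3A 1 lay with Control 2 and Control 3, and Control 1 was the highest of all, so the groups overlapped (log2 fold change 0.18, 95% confidence interval -0.45 to 0.81, adjusted p = 0.657 by edgeR). Plxna1, a receptor partner of neuropilins and a receptor of semaphorin 6D, also had its highest level in Control 1 and its lowest in 3A 1, with 46.4, 80.9 and 78.2 CPM in the 3A libraries and 110, 61.3 and 67.3 CPM in the Control libraries (log2 fold change -0.22, adjusted p = 0.625 by edgeR). About 10.7% of its exon bases overlap an antisense gene. Plxna2, Plxna3 and Plxnb1 averaged 8.91 ± 2.81, 4.25 ± 1.14 and 13.8 ± 3.06 CPM in 3A and 10.2 ± 2.17, 4.62 ± 1.68 and 11.3 ± 3.05 CPM in Control (SD, n = 3 each), with log2 fold changes of -0.19, -0.12 and 0.29. The signs for Plxna1, Plxna2 and Plxna3 turned positive without Control 1 (0.10, 0.01 and 0.23) and without 3A 1 (0.0062, 0.06 and 0.09). Control 1 was the highest Control library for 6 of 6 tested plexins, and 3A 1 the lowest 3A library for 5 of 6. Over the 21 tested members these counts were 18 and 16. Neither was counted over all tested genes, so neither order can be called particular to plexins or to members. The part of these libraries in the plexin levels was not tested.

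The 10 members below the filter had at most 11 counts in any library. They were Plxna4, Plxnb3, Plxnc1, Sema3a, Sema3b, Sema3d, Sema3g, Sema4g, Sema5b and Sema6d. The largest sums were those of Sema4g, with 24 counts in 3A and 19 in Control, and of Sema3b, given above. Plxnb3, a receptor of semaphorin 5A, had 14 counts in 3A and 4 in Control, and Plxna4 had 3 and 5. A count of 0 in all 3 libraries would allow up to 0.0277 CPM in 3A and 0.0356 CPM in Control.

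Of the 2 neuropilins, Nrp1 lay lower in 3A without being called and Nrp2 overlapped. Nrp1, which binds semaphorin 3A and VEGF-A, had 19.3, 37.4 and 35.3 CPM in 3A 1, 2 and 3 and 58.2, 45.0 and 53.5 CPM in Control 1, 2 and 3. All 3A libraries were below all Control libraries, and 3A 1 was the lowest. The log2 fold change was -0.77 (SE 0.27, adjusted p = 0.0940 by edgeR), and DESeq2 called it (-0.77, adjusted p = 0.0397). DESeq2 called 26% of all tested genes, against 14.9% in the main test. Nrp2, the co-receptor for semaphorin 3F and VEGF-C, had 230, 356 and 412 CPM in the 3A libraries and 392, 274 and 294 CPM in the Control libraries. Its log2 fold change of 0.06 had a 95% confidence interval of -0.54 to 0.65 (adjusted p = 0.891 by edgeR).

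Levels of different genes were compared as TPM, counts per merged exon length scaled to the same total in each library. Sema3c led in both groups, at 199 ± 46.7 TPM in 3A and 152 ± 45.3 TPM in Control (SD, n = 3 each). Plxnb2 followed at 89.4 ± 23.0 TPM in 3A and 69.2 ± 38.5 TPM in Control, and Nrp2 at 86.4 ± 26.1 TPM in 3A and 71.5 ± 31.2 TPM in Control. These levels of Plxnb2 and Nrp2 did not differ beyond their spread within either group. Sema3f, Plxna1 and Sema4b came next, at 25.4, 23.3 and 18.5 TPM in 3A and 21.4, 23.8 and 22.9 TPM in Control. In Control their libraries overlapped, and in 3A Plxna1 overlapped both of the others, but Sema3f, at 22.0 to 30.3 TPM, lay above Sema4b, at 15.7 to 21.5 TPM, in the 3A libraries. Sema3e, at 16.9 ± 2.98 TPM in 3A and 3.61 ± 1.72 TPM in Control, ranked 7 of 31 in 3A and 12 in Control. Sema7a ranked 12 in 3A and 17 in Control, and Plxnd1 ranked 17 in 3A and 14 in Control.

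Shares within a library do not depend on how libraries are scaled to each other, and were taken of the summed counts per exon length of all semaphorins or all plexins. Sema3c held 64.1% to 70.2% of the semaphorin sum in 3A and 65.9% to 71.7% in Control. Sema3e held 5.21% to 6.09% in 3A and 1.44% to 1.80% in Control, whereas Sema4b held 5.50% to 6.91% in 3A and 10.1% to 10.6% in Control. Sema7a held 1.41% to 1.78% in 3A and 0.231% to 0.463% in Control. The classes as wholes overlapped for class 3 and class 4. Of the plexin sum, Plxnb2 held 75.0%, 73.1% and 73.5% in 3A 1, 2 and 3 and 68.3%, 69.8% and 67.6% in Control 1, 2 and 3. Plxna1 held 17.9%, 19.9% and 19.3% in 3A and 23.8%, 21.9% and 24.5% in Control. The groups did not overlap for either share, although they did for both levels. These genes hold most of the plexin sum, so one share falls as the other rises, and they are not separate observations. In both shares Control 1 lay between the other Control libraries, and 3A 1 was the library farthest from Control. With 3 libraries against 3, an exact permutation test cannot give a two-sided p below 0.1, and none was run on shares or ratios.

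**Figure D3:**
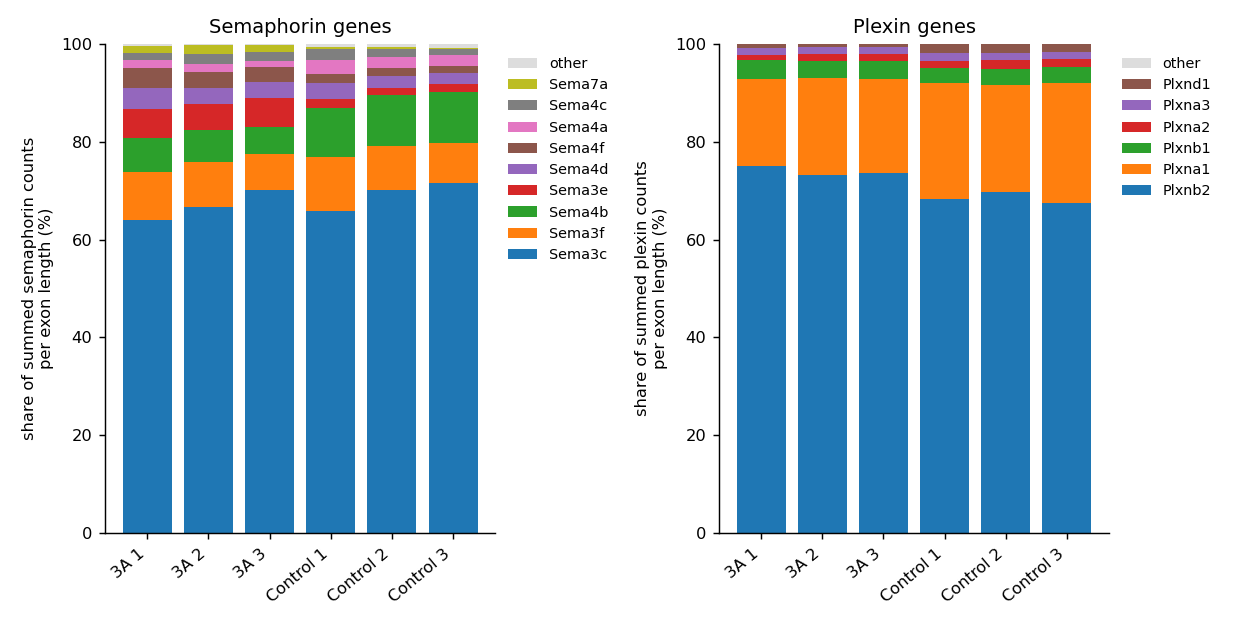
Stacked shares (%, linear axis from 0 to 100) of each library's summed semaphorin (left) and plexin (right) counts per exon length. Sema3c and Plxnb2 take the largest share in all 6 libraries, and the band of Sema3e is wider in 3A (5.21% to 6.09%) than in Control (1.44% to 1.80%).

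Ratios between genes of 1 library, in counts per exon length, set ligands beside receptors. Sema3e stood to Plxnd1 as 18.8, 18.6 and 28.7 in 3A 1, 2 and 3 and as 1.81, 2.26 and 2.57 in Control 1, 2 and 3. The means were 22.0 ± 5.78 in 3A and 2.21 ± 0.383 in Control (SD, n = 3 each), without overlap. The ratio of Nrp2 to Nrp1 was 9.84, 7.86 and 9.63 in the 3A libraries and 5.56, 5.04 and 4.54 in the Control libraries. Sema4d stood to Sema4b as 0.622, 0.527 and 0.613 in 3A and as 0.330, 0.252 and 0.219 in Control. Plxnb2 to Plxna1, which restates the plexin shares above, gave 4.19, 3.67 and 3.80 in 3A and 2.87, 3.18 and 2.76 in Control. None of these ratios overlapped between groups. For Sema3e to Plxnd1 and Sema4d to Sema4b this was fixed in advance, since both genes of each pair already lay apart in opposite directions. The ratio of Sema3c to Sema3f did, at 6.61, 7.25 and 9.65 in 3A and 6.03, 7.87 and 8.95 in Control. The pairs of neuropilins, of class 4 genes and of plexins were chosen after their values were seen.

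**Figure D4:**
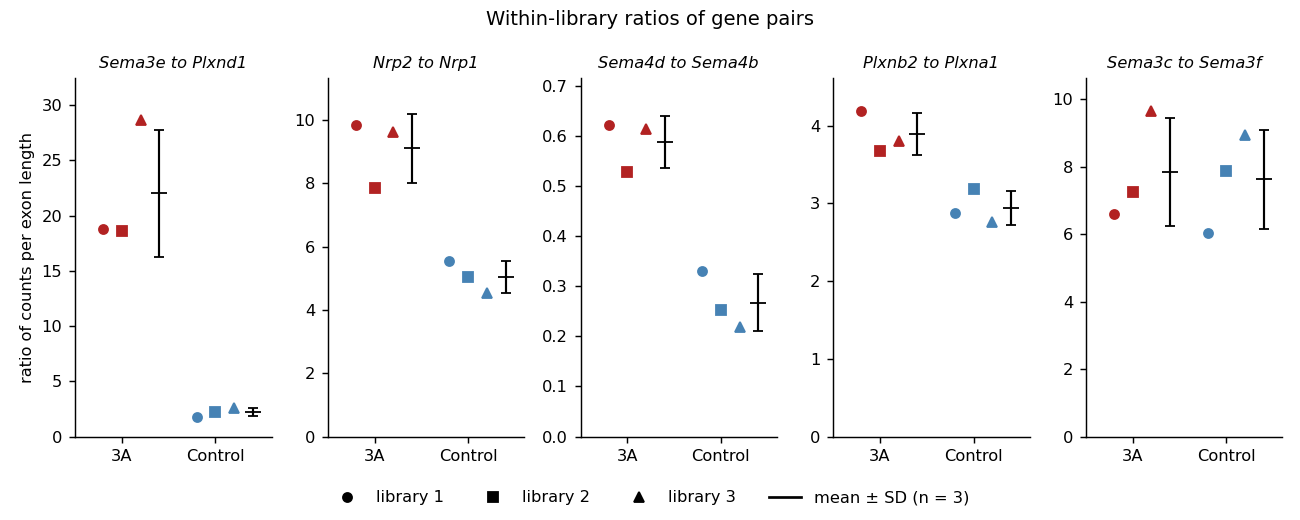
Ratio of counts per exon length between the genes of 5 pairs in each library (linear axes from 0), with 3A left of Control, a symbol for each library number and bars for mean ± SD of 3 libraries. Sema3e to Plxnd1 is 18.6 or more in every 3A library and 2.57 or less in every Control library, and Sema3c to Sema3f overlaps.

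Signalling partners that are no members were read from a list of 67 co-receptors, neuropilin-binding growth factors, proteases and cytoplasmic effectors. Of 56 tested, 5 were higher in 3A and 6 lower, beside 7.52% and 7.39% of all tested genes. Their median log2 fold change was -0.05. Cntn2 and Pgf, among the 5 higher, passed the low-count filter only through the 3A libraries, so a difference was built into their being tested. Leaving out Control 1 gave 15 higher and 14 lower of 58 tested, while 52% of all tested genes were called. Leaving out 3A 2, 3A 3, Control 2 or Control 3 gave 3 higher and 4 lower, while 4.72% to 6.98% of all tested genes were called.

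Of 12 tested co-receptors, 2 were called higher and 2 lower, beside 7.52% and 7.39% of all tested genes. L1cam, an adhesion molecule that associates with neuropilin 1, had 6.48, 8.37 and 8.74 CPM in 3A 1, 2 and 3 and 20.9, 18.3 and 19.5 CPM in Control 1, 2 and 3 (log2 fold change -1.31, SE 0.18, adjusted p = 0.00436 by edgeR). Flt1, a VEGF receptor that pairs with neuropilins, had 7.82, 9.30 and 9.86 CPM in the 3A libraries and 4.76, 4.85 and 4.76 CPM in the Control libraries (log2 fold change 0.91, adjusted p = 0.0168 by edgeR). Flt4, the receptor for VEGF-C and VEGF-D, had 1.15, 0.933 and 0.975 CPM in 3A and 2.35, 1.98 and 2.50 CPM in Control (log2 fold change -1.16, adjusted p = 0.0256 by edgeR). The groups did not overlap for these 3 genes. Without 3A 2 the edgeR adjusted p was 0.101 for Flt1 and 0.151 for Flt4, without 3A 3 it was 0.0878 and 0.126, without Control 2 0.0778 and 0.0598, and without Control 3 0.0628 and 0.0904. Flt4 was also lost without 3A 1 (adjusted p = 0.0593 by edgeR). Cntn2, an axonal adhesion molecule, had 47 counts in 3A against 1 in Control, a ratio of 36.6 in scaled counts (95% exact binomial counting interval 6.26 to 1476). Its only Control count was in Control 1. Met and Erbb2, kinases that associate with plexins of the B type, averaged 240 ± 65.7 and 42.4 ± 4.86 CPM in 3A and 189 ± 35.3 and 58.2 ± 8.68 CPM in Control and were not called.

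Of 5 tested growth factors, Vegfd fell and Pgf was called higher, while 14.9% of all tested genes were called. Vegfd, a ligand of Flt4, had 4.27, 3.84 and 3.09 CPM in 3A 1, 2 and 3 and 15.2, 30.1 and 33.0 CPM in Control 1, 2 and 3, with Control 1 nearest to 3A (log2 fold change -2.80, SE 0.33, adjusted p = 0.00243 by edgeR). Pgf, a ligand of Flt1 and the neuropilins, averaged 0.417 ± 0.0704 CPM in 3A and 0.123 ± 0.0545 CPM in Control (log2 fold change 1.76, adjusted p = 0.0442 by edgeR). It was lost by DESeq2 (adjusted p = 0.0625) and without any library but Control 1 (edgeR adjusted p from 0.0892 to 0.157). Vegfa averaged 50.1 ± 8.19 CPM in 3A and 47.3 ± 16.3 CPM in Control and was not called. Vegfb had 44.8, 27.4 and 28.2 CPM in 3A 1, 2 and 3 and 45.3, 98.1 and 98.2 CPM in Control 1, 2 and 3. It fell just short of the threshold (log2 fold change -1.27, adjusted p = 0.05001 by edgeR), and Control 1 lay just above 3A 1. Of 6 tested proteases that can cleave semaphorins or plexins, 0 were called by edgeR. Pcsk6 had 1.29, 1.95 and 2.14 CPM in 3A 1, 2 and 3 and 6.85, 3.14 and 3.06 CPM in Control 1, 2 and 3. Its log2 fold change was -1.28 (adjusted p = 0.0708 by edgeR). Furin, which processes class 3 semaphorins, averaged 91.3 ± 11.0 CPM in 3A and 91.4 ± 11.9 CPM in Control. Mmp14, which sheds semaphorin 4D, averaged 72.6 ± 10.7 CPM in 3A and 90.2 ± 3.92 CPM in Control, and Adam10 and Adam17 averaged 129 ± 35.5 and 43.2 ± 15.2 CPM in 3A and 111 ± 30.1 and 27.8 ± 7.19 CPM in Control. Adam17 passed without Control 1 (log2 fold change 0.88, adjusted p = 0.0359 by edgeR), where 52% of all tested genes were called.

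Of 33 tested effectors, 2 rose and 3 fell, so 15.2% were called, near the 14.9% of all tested genes. Mical2, of the MICAL family of actin-oxidizing enzymes, whose Drosophila founder binds a plexin, had 64.2, 67.3 and 60.1 CPM in 3A 1, 2 and 3 and 17.1, 11.7 and 12.2 CPM in Control 1, 2 and 3 (log2 fold change 2.22, SE 0.19, adjusted p = 0.000850 by edgeR). Crmp1, a collapsin response mediator of semaphorin 3A signalling, had 39.1, 32.6 and 32.0 CPM in the 3A libraries and 12.9, 11.96 and 13.7 CPM in the Control libraries (log2 fold change 1.43, adjusted p = 0.00186 by edgeR). Rnd1, a small GTPase that binds plexin tails, had 0.802, 0.640 and 0.640 CPM in 3A and 4.44, 4.41 and 3.86 CPM in Control (log2 fold change -2.60, adjusted p = 0.00116 by edgeR). These 3 genes stood without overlap, and for Mical2 Control 1 was the Control library nearest to 3A. Sh3bp1, a Rac GTPase-activating protein known to act downstream of semaphorin 3E and plexin D1, had 29.1, 23.6 and 20.8 CPM in 3A and 50.5, 61.1 and 60.7 CPM in Control (log2 fold change -1.23, adjusted p = 0.00584 by edgeR). Cdk5, the kinase that phosphorylates collapsin response mediators, averaged 20.1 ± 2.58 CPM in 3A and 34.9 ± 6.37 CPM in Control (log2 fold change -0.79, adjusted p = 0.0346 by edgeR), and was lost without any library but Control 1 (edgeR adjusted p from 0.0544 to 0.160).

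**Figure D5:**
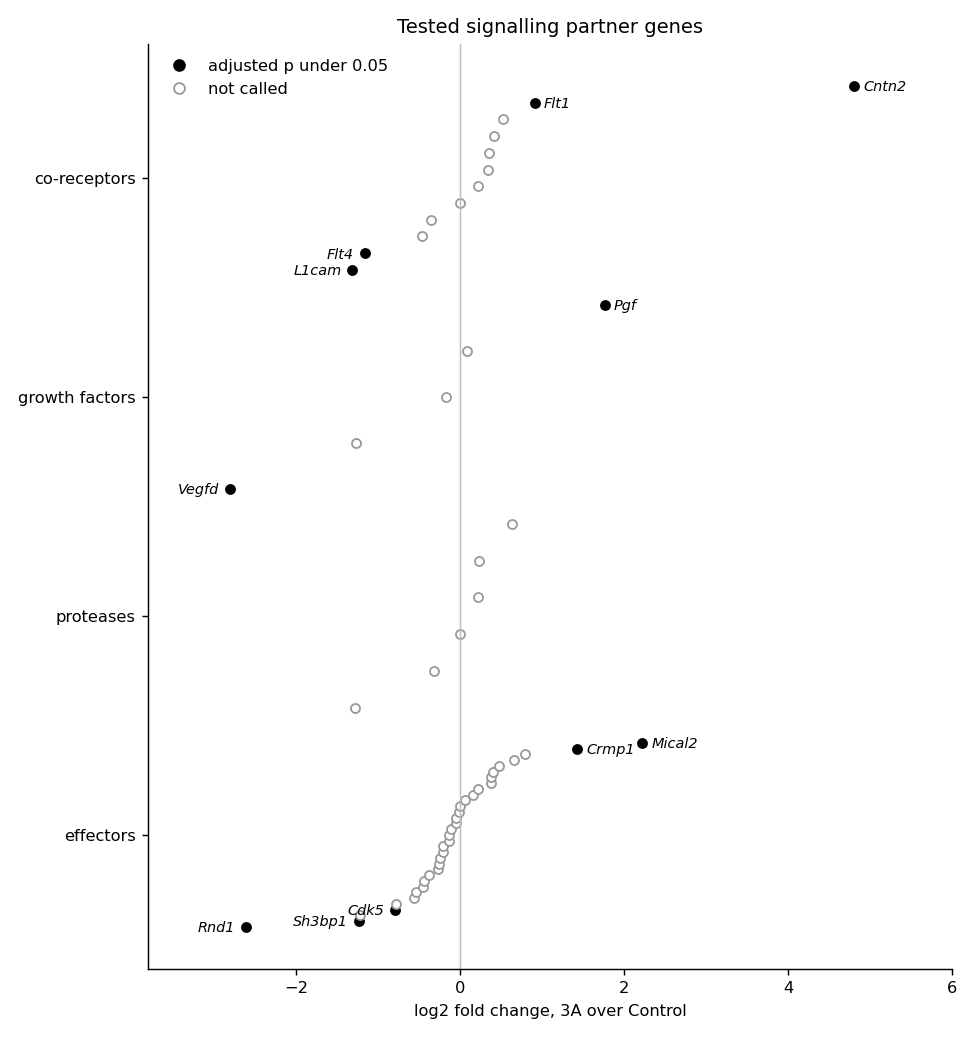
Log2 fold change of 3A over Control for the 56 tested partner genes, grouped by role from top to bottom, with filled points for an adjusted p under 0.05. The 11 called genes are named, with Cntn2 and then Mical2 (2.22) farthest to the right and Vegfd (-2.80) and Rnd1 (-2.60) farthest to the left.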

How the data were processed

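The authors deposited 1 table of raw counts, not normalized, for 49315 mouse Ensembl IDs in 6 libraries. Per the submitters' processing notes, Trim Galore, featureCounts, edgeR and limma were named, with the builds mm10, GRCh38 and hg38, without versions or roles. The sources used here do not give the aligner, annotation release or strand setting. Symbols, positions and merged exon lengths came from GENCODE M21 (GRCm38), which matched 49056 IDs, and promoters from RefSeq, which held 26 of the 31 members.

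The main test was edgeR 4.0.16 in R 4.3.3 (filterByExpr, TMM, quasi-likelihood, group as the only term) over 13704 genes, adjusted by Benjamini-Hochberg, called under 0.05. Standard errors come from the F statistic. CPM uses TMM-scaled library sizes. Exact binomial counting intervals and floors (3 counts) cover counting error only. The edgeR confidence intervals come from the quasi-likelihood fit, which also takes in the spread among libraries. Replicates differed by more than sampling noise (chi-square per degree of freedom 14.5 to 291). Alternatives were other scalings and filters, DESeq2 1.42.0, limma-voom 3.58.1, a replicate block and each library left out. Members and lists were chosen with earlier results of these data known. Every member was to be named, as was every called partner gene, with a few partners named whatever their p. Pcsk6 and Vegfb were named after their values were seen.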

Additional observations from a re-analysis of the deposited data

How the results depend on the processing

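All 7 called members stayed called under scaling by relative log expression, upper quartile scaling, DESeq2 and without Control 1. Without 3A 1, 3A 2, 3A 3, Control 2 or Control 3, 4, 2, 2, 3 and 5 of them stayed called, and Sema3e and Sema5a did in each. Sema5a had passed the low-count filter only through the Control libraries, so a difference was built into its being tested. Members called higher ranged from 1 to 4 and members called lower from 1 to 5 with 1 library left out. Without a low-count filter 2 members were lower. Partner genes ranged from 3 to 15 higher and from 4 to 14 lower with 1 library left out, with 3 higher under a minimum of 1 CPM in 3 libraries and 12 lower by DESeq2. Over all genes, 1031 were higher and 1013 lower, against 1678 and 1887 by DESeq2, and 346 to 3751 higher and 318 to 3690 lower with 1 library left out. The cause of these shifts was not tested. Sema6a was lost with limma-voom (adjusted p = 0.0548), and Sema6a and Sema6c without a low-count filter (edgeR adjusted p = 0.0900 and 0.0614). Under a minimum of 1 CPM, Sema5a and Sema6a were not tested. Scaling by library size alone moved the median log2 fold change of all tested genes to 0.05, against -0.02 with TMM.

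Same-numbered libraries deviated from their group means in opposite directions (r = -0.66, -0.42 and -0.37). Deviations within a group sum to 0, so these values are not independent and cannot tell whether the numbers pair the samples. With the replicate block, 142 genes were higher and 146 lower, 1 member (Sema3e, adjusted p = 0.0424) was higher and 0 were lower, and 2 partner genes were higher and 2 lower. Under the block the 7 called members kept their direction, with adjusted p from 0.0424 to 0.210.

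Signs turned only for genes that were not called. With 1 library left out, log2 fold changes ranged from -0.12 to 0.27 for Nrp2, -0.38 to 0.10 for Plxna1, -0.33 to 0.057 for Plxna2, -0.30 to 0.23 for Plxna3, -0.10 to 0.30 for Sema3f, -0.00055 to 0.59 for Sema4c, -0.0092 to 0.32 for Sema6b, -0.093 to 0.41 for Vegfa and -0.067 to 0.12 for Furin. Furin was at 0.060 when scaled by library size alone and 0.027 without a low-count filter.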
